A study of Mus musculus with 6 samples.

Results

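*T*, *Eomes*, *Mixl1*, *Tbx6*, *Mesp1*, *Mesp2* and *Msgn1* encode transcription factors of the primitive streak and of the mesoderm that leaves it. They were taken by gene symbol, and 7 of 7 were among the 15266 genes listed for D4 EBs. The EBs came from 2 mESC lines derived from W9.5 mESCs. EVX1-Δfs clone 14 carries small frameshift deletions of *Evx1* on both alleles, in the homeodomain region, and Del#3 lacks 2.6 kb of the *Evx1/Evx1as* locus, including the promoter that both genes share. Both lack functional EVX1, so the comparison between them asks what the loss of *Evx1as* and of the locus adds. The EVX1-Δfs libraries come from 1 clone, and the number of clones behind the Del#3 libraries is not given in the sources used here, so an effect of the genotype and one of the clone cannot be told apart. mESCs of both lines were kept in 1000 U/ml LIF, and EBs were grown for 4 days in serum without LIF. Each line had 3 mRNA-seq libraries, from differentiations set up on different days, with the lines side by side on each day. Unedited EBs were not analysed here.

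During gastrulation, epiblast cells move through the primitive streak and leave it as mesoderm or endoderm. Nodal, WNT and BMP signals switch on *T* (Brachyury), *Eomes* and *Mixl1* in the streak, and these factors drive ingression and the first fate choices. *T* is needed for posterior mesoderm and the notochord, *Eomes* for definitive endoderm and for activation of *Mesp1*, and *Mixl1*, a homeodomain factor, for balancing mesoderm and endoderm. *Mesp1* marks the earliest cardiac and cranial mesoderm. *Tbx6*, *Msgn1* and *Mesp2* act in paraxial and presomitic mesoderm, where *Mesp2* sets segment boundaries. *T*, *Eomes* and *Tbx6* are T-box proteins, and *Mesp1*, *Mesp2* and *Msgn1* are basic helix-loop-helix proteins.

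The 6 libraries held 9024579 to 15699124 reads on listed genes, and replicate 1 was the deepest library of each line. The targeted locus went with the labels: *Evx1* had 2582 to 4023 reads in EVX1-Δfs and 28 to 48 in Del#3, and *Evx1as* (listed as 5730457N03Rik) had 571 to 879 and 21 to 30. As a check of cell type, the 4 primitive streak markers that were neither among the 7 genes nor targeted, *Wnt3*, *Fgf8*, *Nodal* and *Sp5*, were detected in every library, with 233 reads or more. Markers of other cell types were also detected in the EBs. The 7 pluripotency and epiblast markers summed to 822 to 946 RPM (reads scaled to the library total) in EVX1-Δfs and 599 to 934 RPM in Del#3. All 7 had a negative log2 fold change between Del#3 and EVX1-Δfs (median -0.25), as did 49.6% of all genes tested. limma, edgeR and DESeq2 called 0 of them, and each gave 1 unadjusted p-value below 0.05 (1.03% of all genes by limma), which became 2 with the block in limma (4.62%). The lines did not overlap for 2 of the 7, both lower in Del#3 (1.80% of all genes). The 5 primitive blood markers summed to 55.2 to 118 RPM and 66.4 to 136 RPM, and the 4 listed neurectoderm markers of 6 to at most 2.35 RPM in any library. All 5 blood markers had a positive log2 fold change (median 0.16), as did 3 of 4 tested visceral endoderm markers (median 0.41). The median of all genes was 0.0022, and limma called 0 of these markers between the lines. In bulk EBs, fewer cells of a type and less RNA per cell cannot be told apart.

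The sequences upstream of 4 of the genes are shown for reference, and no link between them and the levels was tested. *Eomes*, *Mesp1* and *Mesp2* had the largest differences between replicates 1 and 2, *Mesp1* and *Mesp2* are neighbours with very different levels, and *T* is the gene of comparison. Each is the 250 bases before the RefSeq start site, 5′ to 3′ on the gene's own strand (build GRCm38.p6). RefSeq entries were at hand for 6 of the 7 genes, *Mixl1* being the other. Capitals mark matches, on either strand, to AGGTGT (the core of a T-box site), CTTTGA (a TCF/LEF core) or TAATTA (a homeodomain core).
Eomes, chr9:118477939-118478188, plus strand: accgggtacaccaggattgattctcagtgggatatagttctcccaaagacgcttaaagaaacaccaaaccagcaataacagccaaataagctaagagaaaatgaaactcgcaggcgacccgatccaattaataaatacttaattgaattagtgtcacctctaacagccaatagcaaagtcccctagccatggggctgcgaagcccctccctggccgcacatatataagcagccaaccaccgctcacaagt
Mesp1, chr7:79793591-79793840, minus strand: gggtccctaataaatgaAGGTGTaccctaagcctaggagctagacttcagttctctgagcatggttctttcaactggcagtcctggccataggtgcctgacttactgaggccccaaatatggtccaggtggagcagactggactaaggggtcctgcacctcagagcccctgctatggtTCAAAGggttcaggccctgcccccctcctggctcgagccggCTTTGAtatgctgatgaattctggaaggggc
Mesp2, chr7:79810477-79810726, plus strand: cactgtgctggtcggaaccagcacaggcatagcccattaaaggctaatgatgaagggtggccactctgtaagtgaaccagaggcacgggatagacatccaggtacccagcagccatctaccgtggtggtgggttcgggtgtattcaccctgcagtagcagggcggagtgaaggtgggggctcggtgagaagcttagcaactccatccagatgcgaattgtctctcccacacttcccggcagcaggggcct
T, chr17:8434173-8434422, plus strand: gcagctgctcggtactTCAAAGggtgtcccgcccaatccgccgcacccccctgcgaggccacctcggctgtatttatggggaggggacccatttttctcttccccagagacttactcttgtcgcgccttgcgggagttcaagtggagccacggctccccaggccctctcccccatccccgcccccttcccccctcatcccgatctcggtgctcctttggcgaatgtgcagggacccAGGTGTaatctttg
The *Mesp1* sequence held 1 match to the T-box core, 233 bases before the start, and 2 to the TCF/LEF core, 72 and 31 bases before it. The *T* sequence held 1 of each, 14 and 234 bases before the start, and its T-box match overlapped an E-box (CANNTG, not capitalised). The *Eomes* and *Mesp2* sequences held no match to these 3 cores. Of the sequences not shown, that of *Msgn1* held 2 TCF/LEF matches and 1 homeodomain match, and that of *Tbx6* 1 homeodomain match. Over the same window of all 32851 RefSeq entries, 11.8% held the T-box core, 13.8% the TCF/LEF core, 4.84% the homeodomain core and 66.2% an E-box. These are matches of letters only, and no binding was measured.

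Levels were first compared between the genes, as RPKM (RPM per kilobase of exon, from the recovered reads and the union of annotated exons). *Mesp1* and *Eomes* were the most abundant per length and *Tbx6* the least. *Mesp1* had 94.8 ± 19.4 RPKM and *Eomes* 74.3 ± 14.9 RPKM (SD, n = 6 libraries of both lines). They were followed by *T* with 46.1 ± 5.25 RPKM, *Mixl1* with 20.2 ± 2.68 RPKM and *Mesp2* with 8.69 ± 2.13 RPKM. *Msgn1* had 5.17 ± 1.01 RPKM and *Tbx6* 2.99 ± 0.714 RPKM. The streak factors *T*, *Eomes* and *Mixl1* and the early mesoderm factor *Mesp1* thus stood above the 3 paraxial and presomitic factors in every library.

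**Figure D1:**
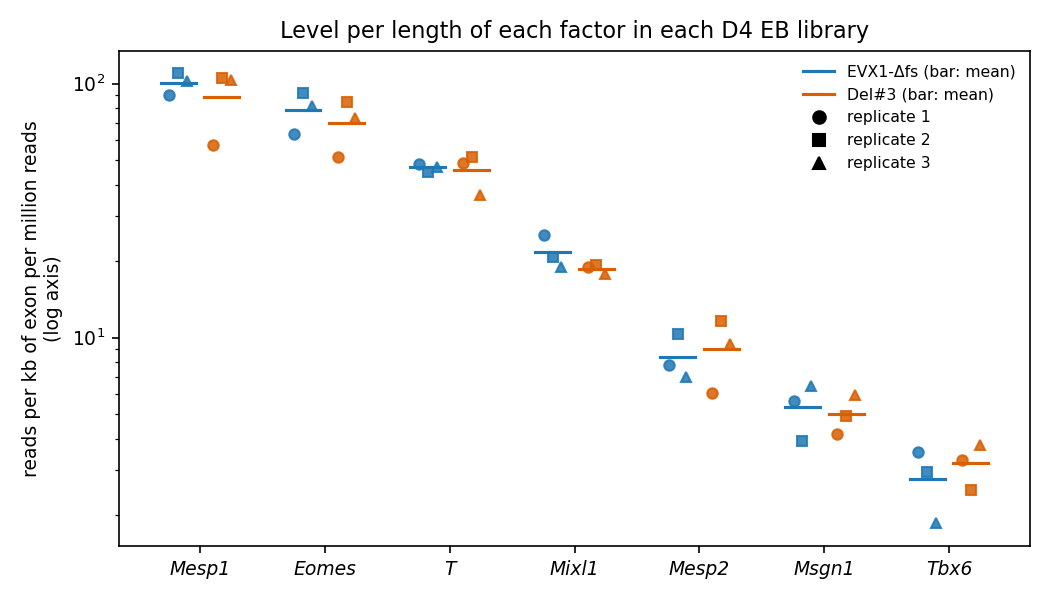
Level per length of each gene (RPKM, log axis) in the 3 EVX1-Δfs and 3 Del#3 libraries, with symbols for the replicate number and a bar for the mean of each line. The genes run from *Mesp1*, at 57.4 to 110 RPKM, down to *Tbx6*, at 1.86 to 3.79 RPKM.

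This order held in 6 of 6 libraries for each pair of neighbours, but some neighbours were close. The ratio of *Mesp1* to *Eomes* was 1.12 to 1.43, and their ranges over the 6 libraries overlapped. With the length of the longest transcript in place of the exon union it was 0.961 to 1.22, so *Mesp1* and *Eomes* are not ordered beyond the choice of length. The ratio of *Eomes* to *T* was 1.05 to 2.04, and the lowest *Eomes* level (51.2 RPKM) was just below the highest *T* level (51.5 RPKM). *T* over *Mixl1* (1.92 to 2.67) and *Mixl1* over *Mesp2* (1.66 to 3.25) had ranges that did not overlap. *Mesp2* over *Msgn1* ranged from 1.08 to 2.64 with overlapping levels. *Msgn1* over *Tbx6* ranged from 1.26 to 3.48, and the lowest *Msgn1* level (3.91 RPKM) was only just above the highest *Tbx6* level (3.79 RPKM). The *Msgn1* level rests on its single annotated exon of 567 bases, which is its coding length, and would be lower if the authors' annotation included untranslated sequence. No test was applied to the order, since libraries of the same day are not independent.

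*Mesp1* and *Mesp2* lie 16.9 kb apart on chromosome 7 of NCBIM37, the assembly known as mm9. *Mesp1* runs from 86937127 to 86938674 on the minus strand and *Mesp2* from 86955613 to 86958317 on the plus strand. Per length, *Mesp1* was 9.07 to 14.7 times as high as *Mesp2*. The ratio was 10.7 to 14.7 in EVX1-Δfs and 9.07 to 10.9 in Del#3, so the lines overlapped.

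The other genes lie apart. *T* is on chromosome 17 (8627288 to 8635361, plus strand), *Eomes* on chromosome 9 (118387330 to 118395250, plus strand) and *Mixl1* on chromosome 1 (182623174 to 182627165, minus strand). *Tbx6* is on chromosome 7 (133924997 to 133929074, plus strand) and *Msgn1* on chromosome 12 (11215188 to 11215754, minus strand). None of the 7 overlaps another gene in the GENCODE annotation of that build.

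The lines were then compared gene by gene, to ask whether the streak program differs once *Evx1as* and the locus are lost in addition to EVX1. By limma, 0 of the 7 genes passed an adjusted p-value of 0.05 between the lines. Of all 12891 genes tested 0.0155% passed, which were *Evx1* and *Evx1as*. The largest of the 7 differences was that of *Mesp1*, at 0.830-fold. All 7 had an adjusted p = 1 by limma, and 0 of them had an unadjusted p-value under 0.05, where 1.03% of all genes did. When replicate numbers entered as a block, 0 of the 7 passed with or without adjustment (0.0233% and 4.62% of all genes). edgeR's quasi-likelihood test and DESeq2 on the recovered reads, with and without the block, also called 0, and 0 had an unadjusted p-value under 0.05. DESeq2 with the block gave no adjusted p-value for *Tbx6* and *Msgn1*, so its count covers the other 5.

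Normalized counts of *T*, in the order of replicates 1 to 3 as for all genes that follow, were 1159, 1098 and 1224 in EVX1-Δfs and 1098, 1346 and 881 in Del#3. Del#3 held both the highest and the lowest library, and the spread in EVX1-Δfs was small (SD 63.0, against 233 in Del#3). By limma, *T* had a log2 fold change of -0.086 (SE 0.23, 95% interval -0.61 to 0.43). Del#3 replicate 3, the library with the least *T*, was also the lowest in summed pluripotency markers (599 RPM, against 822 RPM or more in the other 5 libraries). The part of this in the *T* value was not tested.

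*Eomes* had 2734, 4027 and 3819 normalized counts in EVX1-Δfs and 2072, 3981 and 3185 in Del#3. In each line replicate 1 was the lowest library, and Del#3 was the lower of each same-numbered pair, though in replicate 2 by only 0.017 on the log2 scale. The log2 fold change was -0.23 (SE 0.29, 95% interval -0.86 to 0.41), and 0.034 without Del#3 replicate 1. That library also had the most visceral endoderm marker reads (28.7 RPM), whose part in the value was not tested. Under the block the interval narrowed to -0.61 to 0.16.

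*Mixl1* had 601, 504 and 490 normalized counts in EVX1-Δfs and 422, 499 and 427 in Del#3. The lines overlapped only through replicate 2 of Del#3, which was above replicate 3 of EVX1-Δfs. The log2 fold change was -0.24 (SE 0.23, 95% interval -0.75 to 0.27), and it was the one of the 7 that kept its sign under all 17 alternatives tried (-0.32 to -0.15). Its exact permutation p over the libraries was 0.2 (two-sided, where 0.1 is the smallest that 3 against 3 allow). Of the 7 genes, *Mixl1* had the largest share of its sum of squares between the lines, 49.9%, where the median of all genes was 6.70%.

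*Mesp1* had 1196, 1480 and 1473 normalized counts in EVX1-Δfs and 713, 1519 and 1376 in Del#3. Replicate 1 of Del#3 stood below the other 5 libraries, which lay between 1196 and 1519. The log2 fold change was -0.27 (SE 0.30, 95% interval -0.94 to 0.40), and without that library it was 0.070. Within pairs it was -0.74, 0.037 and -0.099. The same library had the most visceral endoderm marker reads, 28.7 RPM summed over 7 listed markers against 7.86 to 11.9 RPM in the others, and their part in the value was not tested.

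*Mesp2* had 156, 211 and 152 normalized counts in EVX1-Δfs and 114, 254 and 191 in Del#3. Del#3 again held both extremes. Its log2 fold change was 0.049 (SE 0.34, 95% interval -0.71 to 0.80). Within pairs *Mesp2* was lower in Del#3 in replicate 1 (-0.45) and higher in replicates 2 and 3 (0.27 and 0.32).

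*Tbx6* and *Msgn1* had the fewest reads of the 7, though 32.5% and 25.9% of all listed genes had lower mean normalized counts. *Tbx6* had 66.0, 56.3 and 37.8 normalized counts in EVX1-Δfs and 58.2, 51.1 and 71.6 in Del#3. Both the highest and the lowest value were in replicate 3, in Del#3 and EVX1-Δfs respectively. *Tbx6* had a log2 fold change of 0.20 (SE 0.36, 95% interval -0.59 to 0.98), and the EVX1-Δfs replicate 3 value rests on 32 reads (95% exact Poisson interval 21.9 to 45.2, counting error only).

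*Msgn1* had 33.0, 23.4 and 41.4 normalized counts in EVX1-Δfs and 23.1, 31.4 and 35.2 in Del#3. The Del#3 values lay within or just below the EVX1-Δfs range. *Msgn1* had a log2 fold change of -0.11 (SE 0.40, 95% interval -0.99 to 0.78), the widest interval of the 7, with 20 to 50 reads a library. Counting error alone gives a coefficient of variation of 18.1% and 18.4% for *Msgn1* in the lines, against an observed 27.5% and 20.7%. For *Eomes* it gives 1.68% and 1.84% against 19.7% and 31.1%. Counting error was thus a larger part of the observed spread for *Msgn1* than for *Eomes*.

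**Figure D2:**
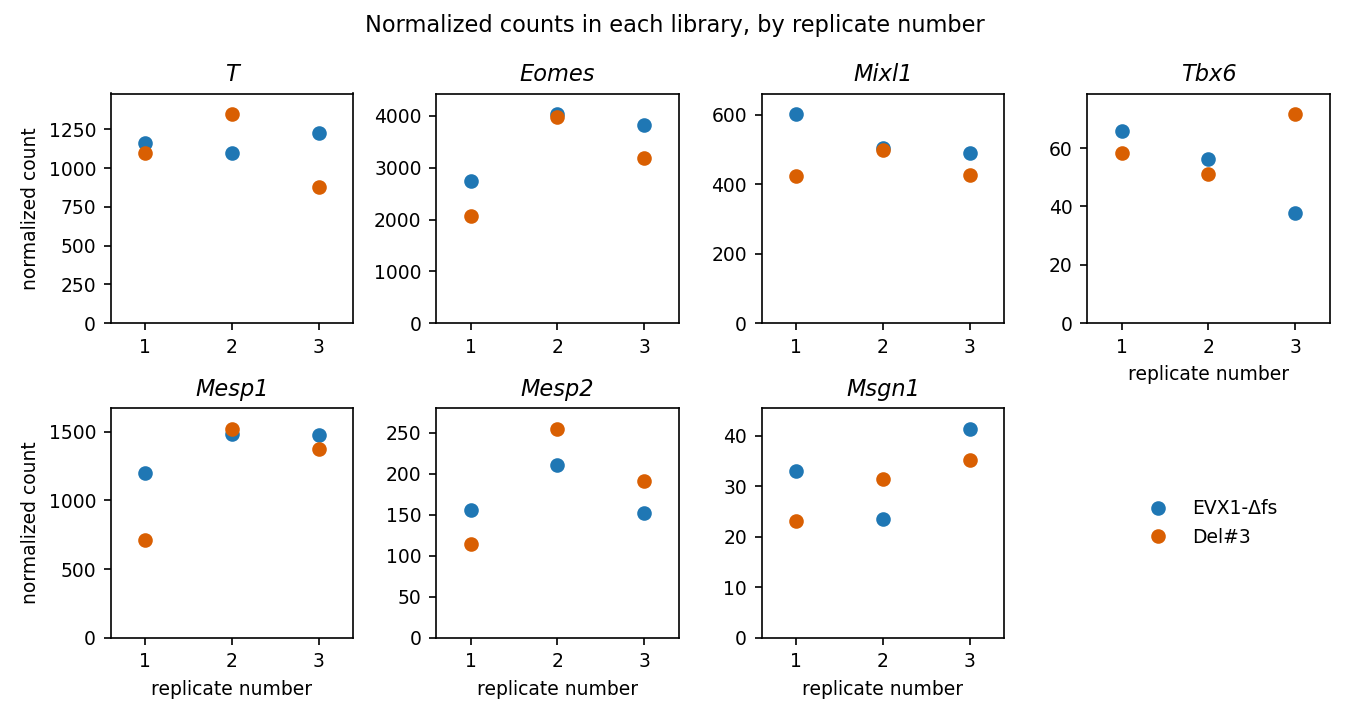
Normalized counts of each gene (vertical axis from 0) against the replicate number, with 1 point per library and colours for the lines. *Eomes* and *Mesp1* were lowest in replicate 1 of both lines, while *T* stayed between 881 and 1346 with no such order.

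The intervals set how large a difference these libraries leave possible. For each of the 7 genes the 95% interval by limma stayed inside 2-fold up and 2-fold down, as it did for 61.1% of all genes tested. It passed 2-fold for *Msgn1* with a pseudocount of 0.1 (0.492-fold) and for *Tbx6* with TMM factors or total reads (2.02-fold and 2.09-fold). With 1 library left out it stayed inside for 3 to 5 of the 7, and *T* and *Mixl1* stayed inside in all 6 of those fits. The interval reached furthest down for *Msgn1* and *Mesp1*, to 0.504-fold and 0.523-fold, and furthest up for *Tbx6*, to 1.98-fold. For *Mixl1* it ran from 0.593-fold to 1.21-fold. Differences inside these intervals could not be told from none. The median log2 fold change of the 7 was -0.11, beside 0.0022 over all genes tested, and 5 of 7 were negative, where 49.6% of all genes were. In all 3 same-numbered pairs, 2 of 7 genes (*Eomes* and *Mixl1*) were lower in Del#3, as were 11.0% of all genes, and 0 of 7 were higher, as were 12.1%. In 0 of 7 did the lines not overlap (1.80% of all genes lower and 1.71% higher).

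**Figure D3:**
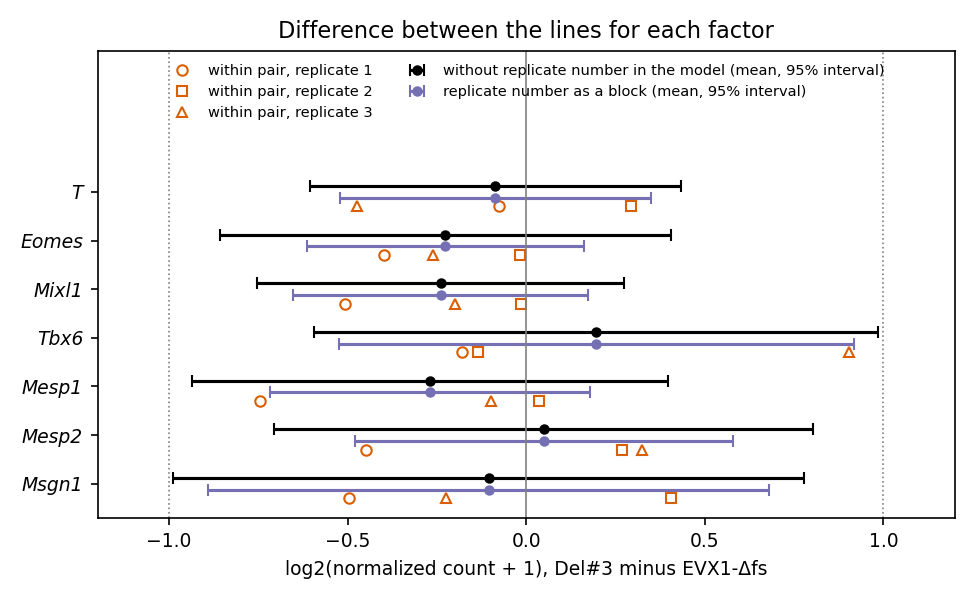
Difference between Del#3 and EVX1-Δfs in log2(normalized count + 1) for each gene, with the mean and 95% interval by limma, with replicate numbers ignored or taken as a block, and the difference within each same-numbered pair. All intervals include 0 and lie between the dotted lines at a 2-fold change.

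The genes were next compared between replicate numbers, with the line as a covariate. That equal numbers in the 2 lines mark the same day is assumed, since the labels give no days. *Eomes*, *Mesp1* and *Mesp2* had the largest differences between replicates 1 and 2. *Eomes* was 1.68-fold higher in replicate 2 and 1.47-fold higher in replicate 3 than in replicate 1, and *Mesp1* 1.62-fold and 1.54-fold (n = 2 libraries each, on the log2 scale averaged over the lines). *Mesp2* was 1.73-fold and 1.28-fold higher. *T*, *Mixl1* and *Tbx6* lay between 0.843-fold and 1.08-fold of replicate 1 in both comparisons, and *Msgn1* was 0.982-fold and 1.37-fold.

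By limma's F test of the replicate number, 0 of the 7 genes passed an adjusted p-value of 0.05, where 4.24% of all genes did. The adjusted p-values were 0.110 for *Eomes*, 0.153 for *Mesp1* and 0.204 for *Mesp2*. Without adjustment 2 of the 7 had a p-value under 0.05, 0.0160 for *Eomes* and 0.0352 for *Mesp1*, and 27.7% of all genes had one, so this share is near the background. edgeR's quasi-likelihood test and DESeq2's likelihood ratio test called 0 of 7 (3.58% of all genes, and 11.5% of those given an adjusted p-value), with 1 and 2 at an unadjusted p-value under 0.05 (26.9% and 22.7%). Without EVX1-Δfs replicate 2, *Eomes* (adjusted p = 0.0279) and *Mesp1* (0.0479) passed by limma, in a fit where 16.9% of all genes passed. For replicate 2 against replicate 1 alone, where 12.3% of all genes passed, the adjusted p-value of *Eomes* was 0.0501 by limma, and 0 of 7 genes were called as higher in replicate 2 (3.37% of all genes).

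Replicate 1 was the lowest library of both lines for 2 of 7 genes, *Eomes* and *Mesp1*, and for 26.4% of all genes. Replicate 2 was the lowest of both lines for 0 of 7 (17.9% of all genes), and so was replicate 3 (7.84%). The replicate number held 84.1% of the sum of squares of *Eomes*, 77.0% of that of *Mesp2* and 67.5% of that of *Mesp1*, beside a median of 64.4% over all genes. These shares stood at percentiles 77.3, 66.4 and 53.8 of all genes tested. It held 24.6% for *T*, 14.1% for *Mixl1* and 13.9% for *Tbx6*, with *Msgn1* between these groups at 55.7%. These 4 shares stood at percentiles 15.1, 8.30, 8.17 and 40.8. Replicate 1 libraries were also the deepest and had the most reads on primitive blood markers, at 118 and 136 RPM against 55.2 to 91.5 RPM in the other 4. The part of either in the *Eomes* and *Mesp1* values was not tested.

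Ratios within a library do not depend on its scaling. *Eomes* per *Mixl1*, as a ratio of levels per length, was 2.51 and 2.71 in replicate 1 of EVX1-Δfs and Del#3. It was 4.41 and 4.40 in replicate 2, and 4.30 and 4.12 in replicate 3. Between same-numbered libraries the 2 lines differed by less than replicate 1 differed from replicates 2 and 3. *Mesp1* per *Mixl1* went the same way, at 3.58 and 3.04 in replicate 1 and between 5.29 and 5.79 in the others. With *T* as the denominator the replicate numbers were less separate from the lines. *Eomes* per *T* was 1.31, 2.04 and 1.74 in EVX1-Δfs and 1.05, 1.65 and 2.01 in Del#3. *Mesp1* per *T* was 1.87, 2.44 and 2.18 in EVX1-Δfs and 1.18, 2.05 and 2.83 in Del#3, where replicate 1 of EVX1-Δfs was nearer to replicate 2 of Del#3 than to replicate 1. These ratios were chosen after their values were seen and are given with no test.

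**Figure D4:**
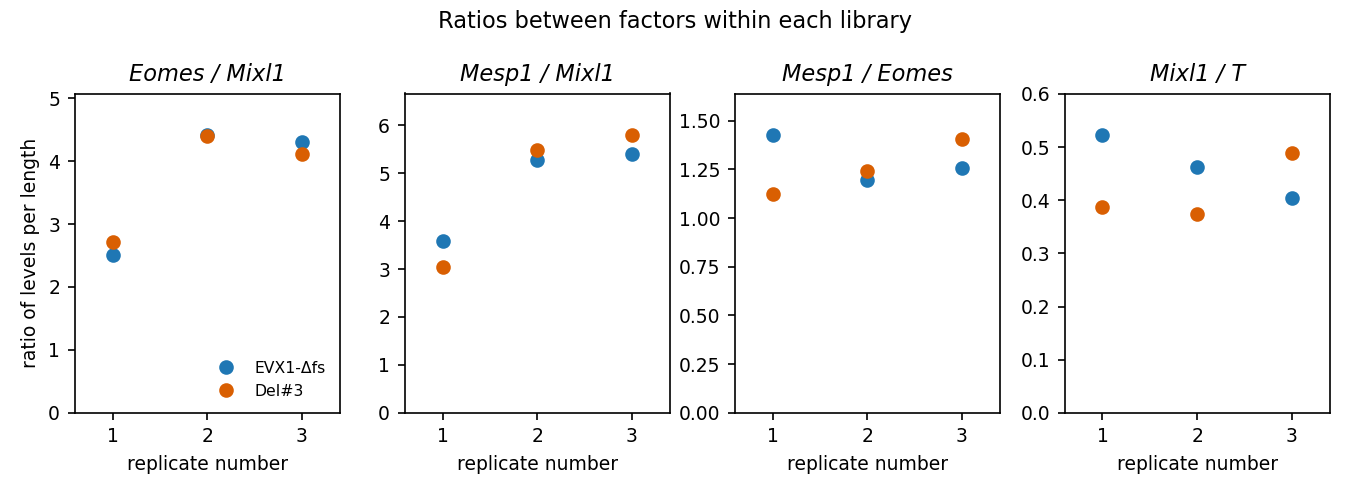
Ratios of levels per length between genes of the same library (vertical axes from 0) against the replicate number, with colours for the lines. *Eomes* and *Mesp1* per *Mixl1* were lower in replicate 1 of both lines, while *Mesp1* per *Eomes* (1.12 to 1.43) and *Mixl1* per *T* (0.374 to 0.522) had no such order.

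For each gene, the genes with the most similar pattern over the 6 libraries were taken as those with the smallest root mean square difference of log2(normalized count + 1), centred on the gene's mean, among 9122 or 9123 genes with a mean of at least 100 normalized counts. Those nearest to *Eomes* were *Rnf166* and *Pdf* (0.048 and 0.049, on the log2 scale) and those nearest to *Mesp1* were *Cox8a* and *Dusp22* (0.051 and 0.053). *T* was nearest to *Gemin4* and *Chaf1b* (0.035 and 0.042), and *Mixl1* to *Dusp6* and *Cops7b* (0.044 and 0.051). *Mesp2* was nearest to *Lzts1* and *Ovol2* (0.038 and 0.083), *Tbx6* to *Bcor* and *Me1* (0.079 and 0.081) and *Msgn1* to *Mad2l1* and *Ccdc90b* (0.038 and 0.057). No gene of the set was among the nearest 2 of another, and *Tbx6* and *Msgn1* could not be, since their means were under the minimum. Among themselves, *Eomes* and *Mesp1* were the closest pair (0.12), then *T* and *Mixl1* (0.18) and *Eomes* and *Mesp2* (0.22), and *Eomes* and *Tbx6* the farthest (0.54). With 6 libraries and this many candidates, close matches of this kind are a description only.

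The genes around these factors were read from 5 lists written from general knowledge. Between the lines, limma called 0 genes in each, and the number with an unadjusted p-value under 0.05 was 1 of 6 tested other T-box genes, 0 of 19 inducers of the streak, 0 of 13 presomitic mesoderm genes, 0 of 17 cardiac and lateral mesoderm genes and 0 of 10 anterior streak and endoderm genes (1.03% of all genes). With the block, these numbers were 1, 0, 0, 2 and 0 (4.62%). edgeR's quasi-likelihood test and DESeq2 without the block also called 0 in each list. With the block, edgeR called 0 and DESeq2 called 1 gene, *Mga*. The inducers and the other T-box gene given next were named after their values were seen. Levels of *Nodal*, a ligand upstream of *Eomes* and *Mixl1*, were 349 ± 48.8 normalized counts (SD, n = 3) in EVX1-Δfs libraries and 359 ± 128 in those of Del#3. *Wnt3*, needed for the streak to form, had 654 ± 54.3 and 680 ± 113, and *Bmp4* 773 ± 156 and 826 ± 198. These 3 overlapped between the lines, as did 17 of the 19 inducers tested. The lines did not overlap for the other 2, *Tdgf1*, the Nodal co-receptor, and *Sp8*, both lower in Del#3 (1.80% of all genes). *Tdgf1* had 5504 ± 980 normalized counts in EVX1-Δfs and 4221 ± 416 in Del#3, and *Sp8* 76.7 ± 8.73 and 60.3 ± 6.97, and neither passed by limma (adjusted p = 1).

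*Mga* encodes a large protein with both a T-box and a basic helix-loop-helix domain. Its level was 296 ± 129 normalized counts (SD, n = 3) in EVX1-Δfs libraries and 706 ± 377 in those of Del#3. The lines did not overlap, as for 1.71% of all genes in that direction. The log2 fold change of 1.24 (SE 0.43) did not pass by limma (adjusted p = 1, and 0.693 with the block). Within the 3 pairs Del#3 exceeded EVX1-Δfs by 1.66, 1.75 and 0.32 on the log2 scale. The median log2 fold change of the 6 tested other T-box genes was 0.50, beside 0.0022 over all genes. All 6 values were above 0, where 49.6% of all genes were below 0. Their medians within pairs 1 to 3 were 0.099, 0.32 and 0.93. In all 3 pairs, 3 of the 6 were higher in Del#3, as were 12.1% of all genes. Of the anterior streak and endoderm genes 9 of 10 were below 0 (median -0.17). *Sox17*, an endoderm factor, was the 1 of the 10 that did not overlap between the lines (762 ± 43.6 and 601 ± 71.9, adjusted p = 1 by limma). Of all genes 1.80% did not overlap and were lower in Del#3. Of the 6 T-box genes, *Tbx3* was the most abundant in counts, with 1427 ± 287 and 1712 ± 363. By limma none of these differences passed.

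Between replicate numbers, limma's F test called 0 genes in the same 5 lists, with 2, 6, 3, 4 and 1 at an unadjusted p-value under 0.05 in the order above (27.7% of all genes). For replicate 2 against replicate 1 alone limma called 0, 1, 1, 2 and 1 of them (12.3% of all genes). Of these, *Dll3* and *Foxa2* were higher in replicate 2 and *Smad2*, *Zeb2* and *Snai2* lower. *Snai2* had few reads, with means of 6.32 normalized counts in EVX1-Δfs and 14.0 in Del#3. Of the marker lists limma called *Nanog* and *Actc1* as higher in that contrast and *Hba-x* and *Hbb-bh1* as lower. In the 5 lists edgeR's quasi-likelihood test of the replicate number called 0 (3.58% of all genes). DESeq2's likelihood ratio test called 3, which were *Mga*, *Zeb2* (a repressor of epithelial genes) and *Foxa2* (a factor of the anterior streak and endoderm). The likelihood ratio test called 11.5% of the genes for which it gave an adjusted p-value. Of the marker lists, DESeq2's test also called *Nanog*, a pluripotency factor, which did not pass limma's F test (adjusted p = 0.0804). It was 0.95 higher on the log2 scale in replicate 2 than in replicate 1 and passed in that contrast alone (adjusted p = 0.0318 by limma). *Hba-x*, an embryonic globin gene of the blood markers, was called by limma (adjusted p = 0.0238) and was 2.35 lower on the log2 scale in replicate 2 than in replicate 1. *Eomes* and *Mesp1* had the sign of *Nanog* and not that of *Hba-x* in that comparison. The 7 pluripotency markers were mixed in it, from -0.34 to the 0.95 of *Nanog* (median 0.13). The 5 blood markers had a median of -0.77, and all genes one of -0.027. A relation was not tested.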

How the data were processed

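mRNA-seq libraries of D4 EBs, 3 of each line, were grouped by the sample titles. Ion Proton reads were aligned by the authors to the mm9 build, first by TopHat2 and next by TMAP. Gene counts came from HTSeq and normalization from DESeq2, both at standard settings. The annotation and the versions are not given in the sources used here. The deposited signal values are gene counts divided by a size factor per library, and 100% of them were whole multiples of 1 step per library (tolerance 0.001 reads), which gave back the reads. Lines were compared with limma 3.58.1 in R 4.3.3, using log2(normalized count + 1) and a prior variance that follows the mean level, over 12891 genes that passed filterByExpr of edgeR 4.0.16 (minimum count 10). p-values were adjusted over all genes (Benjamini-Hochberg, threshold 0.05). A fold change on this scale understates the change of low genes. All 7 genes passed the filter. Replicate numbers were compared by limma's F test with the line as a covariate. Lengths and positions are from GENCODE M1 on NCBIM37.

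By the study's design, compared lines were differentiated side by side, and each replicate had its own day. The titles give no days, so the pairing of libraries by replicate number is assumed. Deviations of same-numbered libraries from their line means had correlations across genes of 0.74, 0.32 and -0.053 in replicates 1 to 3. Across numbers, EVX1-Δfs replicate 3 correlated with Del#3 replicate 2 at 0.42 and EVX1-Δfs replicate 2 with Del#3 replicate 3 at 0.25. The block is an alternative.

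Named were the 7 genes, the targeted locus, listed genes past the threshold (at most 4 per list and comparison) and the 2 genes nearest to each of the 7. Outside this rule, and after their values were seen, the text also names *Nodal*, *Wnt3*, *Bmp4*, *Tdgf1*, *Sp8*, *Sox17* and *Tbx3*, and the streak markers used to check the cell type. The genes and lists were chosen with earlier results of these data known. Alternatives were pseudocounts of 0.1 and 5, TMM factors or total reads, other filters, edgeR, DESeq2 1.42.0, the block, an adjusted p-value under 0.1, the longest transcript as length, and leaving out each library. The tests were tried on simulated data.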

Additional observations from a re-analysis of the deposited data

How the results depend on the processing

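The count of 0 of the 7 genes that differed between the lines was the same under all alternatives tried, except that the replicate block in DESeq2 gave no adjusted p-value for *Tbx6* and *Msgn1* and covers 5 of them. The count of 2 genes over the whole table became 18 with the replicate block in DESeq2, and was 2 or 3 under the others. The replicate block changed no other call on the 7 genes, whose adjusted p-values with it were 0.992 to 0.996 by limma. Leaving out each library in turn turned the sign of 6 of the 7 log2 fold changes, all small and none past the threshold. *T* became 0.069 without Del#3 replicate 3, *Eomes* 0.034 and *Mesp1* 0.070 without Del#3 replicate 1, and *Tbx6* -0.029 without EVX1-Δfs replicate 3. *Msgn1* became 0.080 without EVX1-Δfs replicate 3 and 0.063 without Del#3 replicate 1. *Mesp2* became -0.019 and -0.034 without EVX1-Δfs replicates 1 and 3, and -0.21 and -0.0065 without Del#3 replicates 2 and 3. Over these fits the values were -0.24 to 0.069 for *T*, -0.44 to 0.034 for *Eomes*, -0.029 to 0.36 for *Tbx6*, -0.47 to 0.070 for *Mesp1*, -0.21 to 0.36 for *Mesp2*, -0.32 to 0.080 for *Msgn1* and, with 1 sign throughout, -0.32 to -0.15 for *Mixl1*.

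Between replicate numbers, 0 of the 7 genes passed under all alternatives except leaving out libraries, which gave 0 to 2 (2 without EVX1-Δfs replicate 2). The count over all genes, 546, was 347 with TMM factors, 317 with total reads, 1308 with DESeq2's likelihood ratio test and 1603 at an adjusted p-value under 0.1. Leaving out 1 library moved it to between 197 and 3175. It was 197, 2217 and 2401 without EVX1-Δfs replicates 1 to 3, and 211, 1453 and 3175 without those of Del#3. In a fit that leaves out a library, 1 replicate number has a single library, which is assumed to vary like the rest. The median ratio of *Mesp1* to *Eomes* per length, 1.25, was 1.07 with the longest transcript. The 95% intervals of all 7 genes lay within 2-fold in the chosen fit, but passed it for *Msgn1* with a pseudocount of 0.1, for *Tbx6* with TMM factors or total reads, and for 2 to 4 genes when a library was left out. The cause was not tested for any of these. *Tbx6* and *Msgn1* had at most 100 and 50 reads a library.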
